A study of Mus musculus with 15 samples.

Results

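The 8 genes described here, *Neurog3*, *Sox9*, *Hes1*, *Pou5f1*, *Nanog*, *Mycn*, *Mycl1* and *Myc*, are transcription factors that mark pancreatic progenitors, pluripotent cells or cells that have lost their mature identity. They were taken by name from the gene tables and are 8 of 22924 genes with a usable value in every library. They were followed in 15 RNA sequencing libraries of sorted mouse islet cells, with the question of which stay undetected and whether their level differs with genotype, ALDH activity or cre driver.

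All libraries came from RFP+ cells, which are marked by cre recombination, in mice on a mixed 129J and C57BL/6 background. The study describes RFP+ cells as β cells or former β cells, a description it gives for RIP-Cre mice. The cells were divided with aldefluor, a fluorescent substrate retained by cells with aldehyde dehydrogenase (ALDH) activity, into ALDH- and ALDH+ populations. Control mice were heterozygous for FoxO1, FoxO3 and FoxO4 per the labels, although the study's methods describe the RIP-Cre controls as carrying no floxed FoxO allele, and the other mice were labelled as knockouts of the same genes. There were 3 control ALDH-, 2 control ALDH+, 5 knockout ALDH- and 5 knockout ALDH+ libraries. The cre driver was RIP-Cre, which acts in insulin-producing cells, in 9 libraries (control ALDH- replicates 1 and 2, control ALDH+ replicate 1, and replicates 1 to 3 of each knockout group). It was Pdx-Cre, which acts in pancreatic precursors and so can mark every pancreatic lineage, in the other 6. The methods give an age of 6 months for the RIP-Cre mice and say that many animals were used per genotype, and neither they nor the labels say which animals went into which library.

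Neurogenin3 (*Neurog3*) is the basic helix-loop-helix factor that commits pancreatic progenitors to the endocrine lineage in the embryo, and it is switched off as β cells mature. Its repressor *Hes1* is a target of Notch signalling, and *Sox9* maintains the progenitor pool and stays on in adult duct cells. *Pou5f1* (Oct4) and *Nanog* hold the pluripotent state, whereas *Myc*, *Mycn* and *Mycl1* (L-myc, now named *Mycl*) drive growth and proliferation. Several of these genes have been used as markers of β-cell dedifferentiation, the loss of mature features without cell death.

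Promoters of 5 of the 8 members were found in the RefSeq table for GRCm38.p6. The sequences of the 250 bases before the start of *Neurog3* and *Mycn* are shown because single libraries stood far above the others of their group for these genes. Capitals mark a CCAAT box (CCAAT on either strand) in *Neurog3*, at chr10:62132840-62133089 on the plus strand, and E2F-type sites (TTTGGCGC on either strand) in *Mycn*, at chr12:12941837-12942086 on the minus strand.
Neurog3: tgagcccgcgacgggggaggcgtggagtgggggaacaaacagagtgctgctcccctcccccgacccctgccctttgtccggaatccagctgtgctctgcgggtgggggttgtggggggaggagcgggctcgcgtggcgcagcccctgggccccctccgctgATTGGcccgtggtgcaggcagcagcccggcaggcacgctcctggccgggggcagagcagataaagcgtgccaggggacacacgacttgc
Mycn: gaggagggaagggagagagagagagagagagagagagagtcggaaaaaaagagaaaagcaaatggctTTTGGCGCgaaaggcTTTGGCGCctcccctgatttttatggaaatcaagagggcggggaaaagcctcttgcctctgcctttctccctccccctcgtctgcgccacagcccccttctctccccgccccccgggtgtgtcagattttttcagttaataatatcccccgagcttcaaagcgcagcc
The CCAAT box began 89 bases before the *Neurog3* start, and 33.8% of the 32851 promoters in the table held one in the window from 250 bases before to 50 bases after the start. The E2F-type site occurred at 2 places in the *Mycn* promoter, 183 and 168 bases before the start, and 0.417% of all promoters held it. Neither promoter held the N box bound by Hes factors (CACNAG, in 36.7% of promoters), the Rbpj site of Notch signalling (GTGGGAA, in 5.42%) or the FoxO core (GTAAACA, in 3.17%), each searched on both strands. A match describes these letters only.

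The values below are FPKM (fragments per kilobase of transcript, scaled to the mapped fragments of the library) as deposited, so levels can be compared between genes per length. The width of each deposited confidence interval gave the number of fragments behind a value, and a gene was called detected in a library at 3 or more fragments. Sums over genes ran from 7492220 to 10058043 fragments per library. The intervals and this limit cover counting error only.

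*Myc* and *Hes1* were detected in all 15 libraries, and *Neurog3* in 11. *Mycn*, *Sox9* and *Pou5f1* reached 3 fragments in 4, 1 and 1 libraries. *Nanog* and *Mycl1* stayed below 3 fragments everywhere, so 6 of the 8 members were detected in at least 1 library. The median level of *Myc* was above that of 70.9% of genes, that of *Hes1* above 62.5% and that of *Neurog3* above 51.4%, while the medians of the other 5 were 0.

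**Figure D1:**
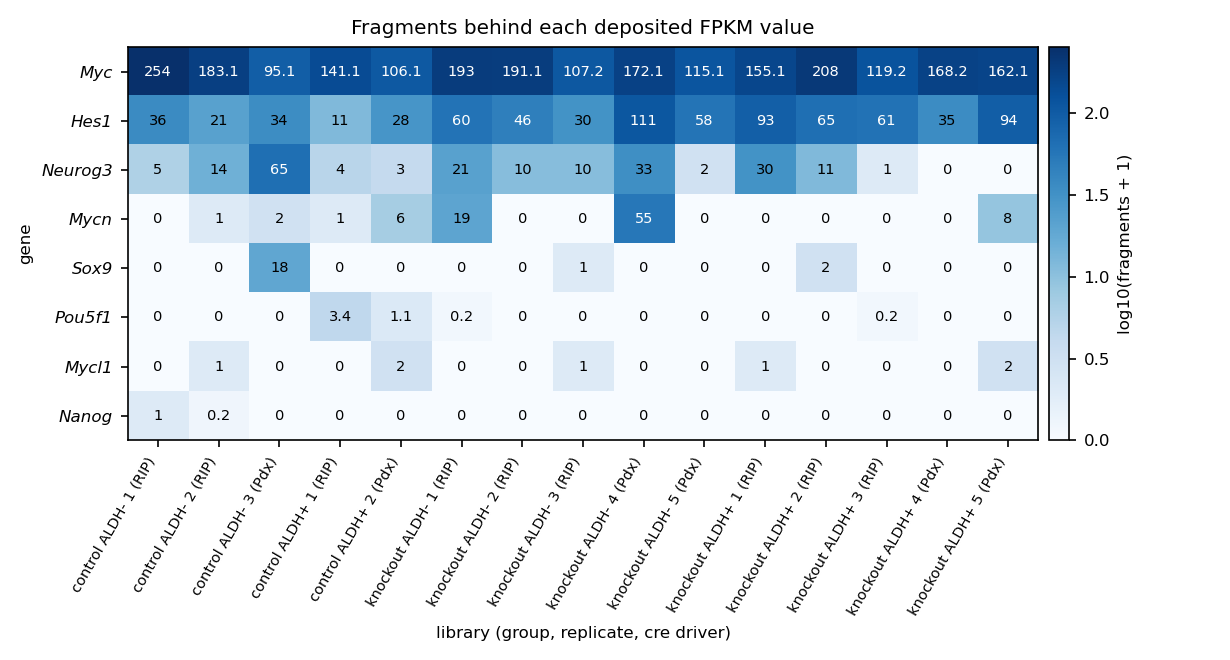
Fragments behind each FPKM value, with genes as rows, libraries as columns (group, replicate number and cre driver) and shade giving log10(fragments + 1). *Myc* had 95 to 254 fragments and *Hes1* 11 to 111 in every library, whereas *Mycl1* and *Nanog* never exceeded 2.

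Markers of other islet cells were highest in Pdx-Cre ALDH- libraries. Summed FPKM of 5 alpha cell markers was 157 to 1019 in the RIP-Cre libraries and 277 to 35850 in the Pdx-Cre libraries, with the highest sums in control ALDH- replicate 3 (35850), knockout ALDH- replicate 4 (17357) and knockout ALDH- replicate 5 (9557). Control ALDH+ replicate 2 (5830) was also above the RIP-Cre range, whereas the Pdx-Cre knockout ALDH+ replicates 4 and 5 (277 and 606) lay within it. Delta and PP cell markers were also highest in the first 2 of these. Summed β-cell markers reached 34268 to 126053 over the 6 of 8 listed in every library, nearly all of it *Iapp* (33196 to 125094). *Slc2a2* was at 8.61 to 24.6 in Pdx-Cre and 99.95 to 227 in RIP-Cre libraries, and *Ucn3* at 69.9 to 302 and 418 to 795. *Iapp*, *Pdx1* and *Mafa* (0.434 to 13.9) overlapped between the drivers, and *Nkx6-1* is given below. Duct markers summed to 292 to 1002, although *Cftr* was listed at 0 in all but knockout replicate 5 of each ALDH population (0.600 and 0.0155). Acinar markers summed to 1406 in control ALDH+ replicate 2, 664 in knockout ALDH+ replicate 5 and 370 in knockout ALDH- replicate 5, all Pdx-Cre, against at most 1.72 in RIP-Cre libraries. Immune markers summed to at most 148, and endothelial and mesenchymal markers to at most 4.01 and 1.14. In these bulk samples more cells of a type and more RNA per cell cannot be told apart. The sorted enzyme itself, *Aldh1a3*, was at 0.490 to 4.09 FPKM in ALDH- and 22.1 to 76.9 in ALDH+ libraries. *Foxo1* was at 12.04 to 20.1 in control and 0.0925 to 4.24 in knockout libraries, *Foxo4* was at most 1.34 and 0.0669, and *Foxo3* overlapped between the genotypes (12.7 to 23.0 against 9.78 to 30.6).

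*Hes1* (mm9 chr16:30065442-30067882) had the largest estimated difference between knockouts and controls among the 3 members abundant enough to test. In control ALDH- cells it was at 2.44, 1.36 and 2.96 FPKM in replicates 1 to 3, and in control ALDH+ cells at 0.933 and 2.34. Knockout ALDH- libraries held 4.45, 3.58, 2.32, 8.49 and 4.62 FPKM, and knockout ALDH+ libraries 7.28, 4.65, 5.38, 2.72 and 7.16. All 5 knockout ALDH+ libraries were above both control ALDH+ libraries, whereas in ALDH- cells knockout replicate 3 lay among the controls. The group medians were ordered control ALDH+ (1.64), control ALDH- (2.44), knockout ALDH- (4.45) and knockout ALDH+ (5.38), and the libraries of each neighbouring pair in that order overlapped.

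In the limma model of log2(FPKM + 1), with genotype and ALDH groups and the cre driver, *Hes1* was 2.04-fold higher in knockouts averaged over ALDH (log2 1.03 ± 0.27 SE, 95% interval 0.46 to 1.59). Its unadjusted p was 0.0014, a p-value limit of 0.01 was met by 2.21% of all tested genes in this comparison, and the limma adjusted p over 11253 genes was 0.25, so the call was not made. The estimate was 1.34 ± 0.40 in ALDH+ cells (limma adjusted p 0.58) and 0.72 ± 0.35 in ALDH- cells (limma adjusted p 0.86). The difference between them, 0.63 ± 0.53, had an interval from -0.51 to 1.76. Between ALDH+ and ALDH- cells the averaged difference was -0.09 ± 0.27, with an interval from -0.66 to 0.47.

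The exact permutation test of *Hes1* alone, with genotype labels exchanged within ALDH population and cre driver, gave a two-sided p of 0.00556 for a log2 difference of 0.96, where the smallest p possible was 0.00278. It is 1 of 12 such tests (4 members by 3 factors), and these p-values are not adjusted. Within the RIP-Cre libraries the difference was 1.10 (exact permutation p 0.05, smallest possible 0.025), and within the Pdx-Cre libraries 0.76 (exact permutation p 0.22, smallest possible 0.11). The direction was thus the same under both cre drivers. With the ALDH populations pooled, knockouts overlapped controls within each driver, at 2.32 against 2.44 FPKM for RIP-Cre and 2.72 against 2.96 for Pdx-Cre. The RIP-Cre values were both from ALDH- cells. For Pdx-Cre the knockout value was from ALDH+ and the control value from ALDH- cells. Non-overlap of the kind seen in ALDH+ cells occurred in 8.26% of tested genes, and in the upward direction in 3.66%. Among the marker lists, summed duct markers, a cell type that expresses *Hes1*, ranged from 485 to 548 in control and from 292 to 1002 in knockout libraries, and their part in the result was not tested.

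**Figure D2:**
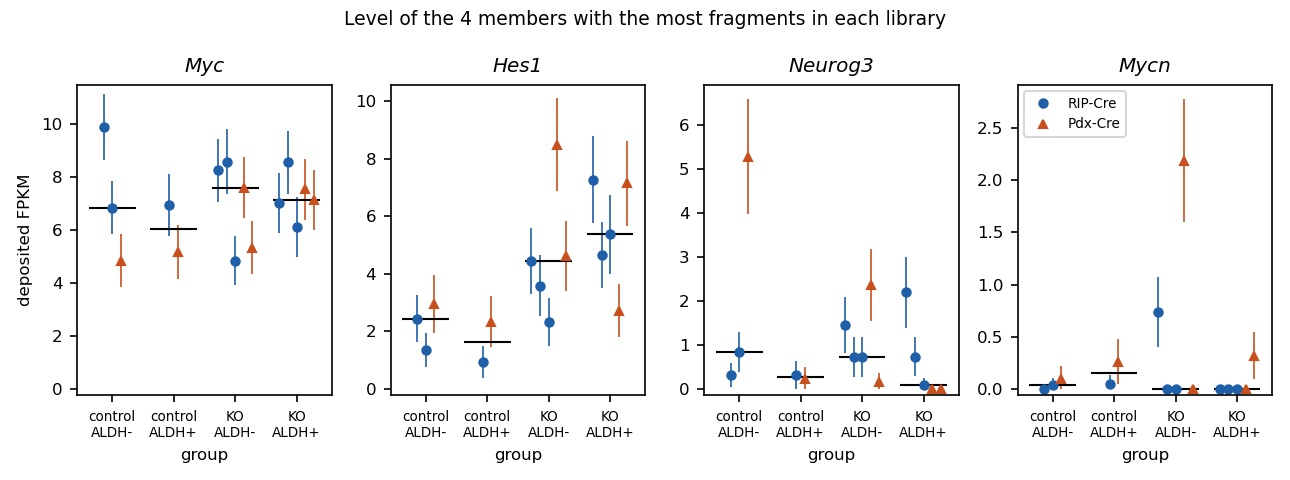
Deposited FPKM of *Myc*, *Hes1*, *Neurog3* and *Mycn* in each library by group, with bars for the deposited confidence interval, black lines for group medians, circles for RIP-Cre and triangles for Pdx-Cre. *Hes1* medians were 4.45 and 5.38 in the knockout groups against 2.44 and 1.64 in controls, while the highest *Neurog3* (5.28) and *Mycn* (2.19) values were single Pdx-Cre ALDH- libraries.

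*Neurog3* (chr10:61595837-61597511) was low, and its highest value was in a control library. Control ALDH- replicates 1 to 3 were at 0.316, 0.846 and 5.28 FPKM, the last from 65 fragments and the Pdx-Cre driver. Control ALDH+ libraries were at 0.316 and 0.234. Knockout ALDH- libraries were at 1.45, 0.727, 0.723, 2.35 and 0.149. Knockout ALDH+ libraries were at 2.19, 0.734, 0.0822, 0 and 0, so the lowest group by median (0.0822) was knockout ALDH+ and the highest (0.846) was control ALDH-. That lowest median rests on 1 fragment, below the detection limit. By mean the lowest group was control ALDH+ (0.275, against 0.601 in knockout ALDH+). A value of 0 in the last 2 knockout ALDH+ libraries, both Pdx-Cre, allows up to 3 fragments, or 0.217 and 0.213 FPKM. All groups overlapped.

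The limma estimate for *Neurog3* in ALDH+ relative to ALDH- cells was -0.72 ± 0.42 on the log2 scale averaged over genotypes (interval -1.61 to 0.17, limma adjusted p 0.35). It was -0.26 without control ALDH- replicate 3 and -0.16 in the RIP-Cre libraries alone. The knockout effect was -0.10 ± 0.42 (interval -0.99 to 0.78), and without the same control library it was 0.31. Exact permutation tests gave two-sided p-values of 0.14 for ALDH, 0.65 for genotype and 0.83 for the cre driver. That library also decided whether the gene was tested at all: its mean rescaled FPKM was 1.05 with it and 0.71 without it, against a filter of 1. It held the highest alpha, delta and PP marker sums of the series (35850, 14029 and 18184 FPKM), and the library next in *Neurog3*, knockout ALDH- replicate 4, held the next highest (17357, 10012 and 8449). Knockout ALDH+ replicate 1, a RIP-Cre library with nearly as much *Neurog3* (2.19 FPKM), held sums of 1019, 810 and 816. Over the RIP-Cre libraries these sums ranged from 157 to 1019, from 436 to 1331 and from 371 to 2175. Whether alpha, delta or PP cells carried the transcript was not tested.

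**Figure D3:**
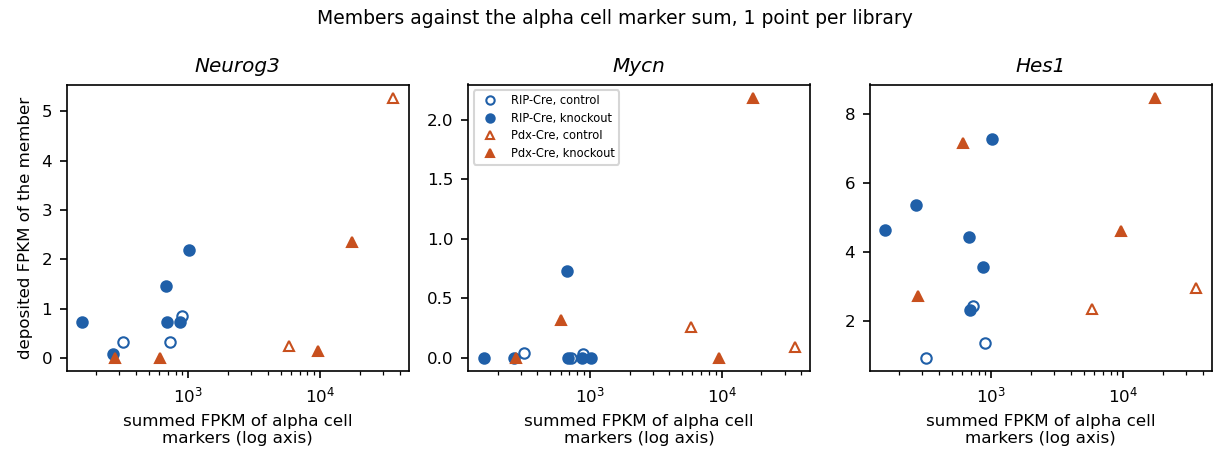
Deposited FPKM of *Neurog3*, *Mycn* and *Hes1* (vertical axes) against summed FPKM of alpha cell markers (horizontal log axis), 1 point per library, with circles for RIP-Cre, triangles for Pdx-Cre, open symbols for control and filled symbols for knockout. The highest *Neurog3* value (5.28) lies at the highest marker sum (35850) and the highest *Mycn* and *Hes1* values (2.19 and 8.49) at the next (17357). Knockout ALDH- replicate 5, with a sum of 9557, was at 0.149 for *Neurog3* and 0 for *Mycn*.

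*Sox9* (chr11:112643523-112649071) was detected in 1 library, again control ALDH- replicate 3, at 0.494 FPKM from 18 fragments. Knockout ALDH- replicate 3 held 1 fragment (0.0244 FPKM), knockout ALDH+ replicate 2 held 2 (0.0451), and the remaining 12 libraries were at 0. Those zeros allow at most 0.0612 to 0.0833 FPKM per library. In the library with *Sox9* the duct markers summed to 497 FPKM, against 292 to 1002 over all libraries. Of single duct markers it held the highest *Krt18* (165, against 40.7 to 128 elsewhere), *Krt19* at 2.97, against 0.217 and 0.345 in the other control ALDH- libraries, and *Cftr* at 0. The part of duct cells in the result was not tested.

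*Pou5f1* (chr17:35642976-35647722) was listed above 0 in both control ALDH+ libraries (0.719 and 0.299 FPKM), in knockout ALDH- replicate 1 (0.0589) and in knockout ALDH+ replicate 3 (0.0700), and at 0 in the other 11. The fragments behind these values were 3.36, 1.13 or fewer, so its level is uncertain. They were not whole numbers, whereas 67.0% of all values below 500 fragments were. The gene has processed pseudogenes, and whether reads were divided between similar sequences was not tested. The deposited interval reached 0 in every library. Both control ALDH+ values were above all other libraries, and the share of genes with that pattern was not computed. Non-overlap between ALDH+ and ALDH- controls alone, in either direction, is a looser pattern. It occurred in 29.7% of tested genes, which do not include *Pou5f1*. *Pou5f1* was below the filter. With no filter it passed the limma threshold in 5 of 8 comparisons, among them ALDH+ against ALDH- in control (log2 0.58, adjusted p 0.0061, where 0.585% of 16928 genes passed), and these calls rest on the 3.36 and 1.13 fragments of the control ALDH+ libraries. The other 4 comparisons and the share of genes that passed in them were ALDH averaged over genotypes (3.23%), knockout in ALDH+ cells (0.195%), knockout averaged over ALDH (0.236%) and the interaction (0.0945%).

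*Nanog* (chr6:122657585-122663796) was at 0.0734 and 0.0351 FPKM in control ALDH- replicates 1 and 2, from 1 and 0.25 fragments, and at 0 in the other 13 libraries. In those 13 a count of 0 allows 0.232 to 0.286 FPKM. Neither pluripotency factor was therefore measured at a level that this depth could compare between groups.

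*Myc* (chr15:61816895-61821916), the most abundant member, was present at 4.84 to 9.88 FPKM. Control ALDH- libraries held 9.88, 6.84 and 4.84 FPKM and control ALDH+ libraries 6.93 and 5.17. Knockout ALDH- libraries held 8.24, 8.58, 4.84, 7.60 and 5.33, and knockout ALDH+ libraries 7.02, 8.56, 6.10, 7.52 and 7.13. Group medians lay between 6.05 and 7.60, and the groups overlapped throughout. Averaged limma estimates on the log2 scale were -0.04 ± 0.18 for ALDH (interval -0.43 to 0.35), 0.11 ± 0.18 for knockout (-0.28 to 0.50) and -0.17 ± 0.17 for Pdx-Cre against RIP-Cre (-0.54 to 0.21). Within Pdx-Cre all 4 knockout libraries were above both controls, a non-overlap shared by 13.0% of tested genes, with an exact permutation p of 0.11, the smallest possible there. Within RIP-Cre the difference was -0.06.

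*Mycn* (chr12:12942898-12948642) was found in scattered libraries. Knockout ALDH- replicate 4 held 2.19 FPKM (55 fragments) and replicate 1 held 0.733 (19 fragments), while replicates 2, 3 and 5 were at 0. Knockout ALDH+ replicate 5 held 0.317 (8 fragments) and the other 4 of that group were at 0. Controls held 0, 0.0337 and 0.0905 in ALDH- and 0.0441 and 0.261 in ALDH+ cells. Exact permutation p-values were 0.47 for ALDH, 0.63 for genotype and 0.20 for the cre driver. The difference between replicates of 1 knockout group thus spanned the whole range of the gene.

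*Mycl1* (chr4:122673341-122679723), the L-myc gene, never exceeded 2 fragments. It was at 0.0245 FPKM in control ALDH- replicate 2, 0.0293 in knockout ALDH- replicate 3, 0.0632 in control ALDH+ replicate 2, and 0.0296 and 0.0575 in knockout ALDH+ replicates 1 and 5. The other 10 libraries were at 0, which allows 0.0768 to 0.0998 FPKM. The libraries with a fragment came from all 4 groups.

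Of the 8 members, 3 (*Hes1*, *Myc* and *Neurog3*) passed the filter and 0 passed the limma threshold of an adjusted p of 0.05 in any of 8 comparisons. The share of all 11253 tested genes that passed was 5.97% for ALDH+ against ALDH- averaged over genotypes, 1.22% for it in controls and 0.0178% in knockouts. For knockout against control it was 0.0178% in ALDH- cells, 0.0% in ALDH+ cells (743 genes at an unadjusted limma p under 0.05) and 0.116% averaged over ALDH. For the genotype by ALDH interaction it was 0.0% (479 genes at an unadjusted p under 0.05), and for Pdx-Cre against RIP-Cre 9.73%. With so few genes passing in the knockout comparisons, a count of 0 among 3 members is near the background.

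**Figure D4:**
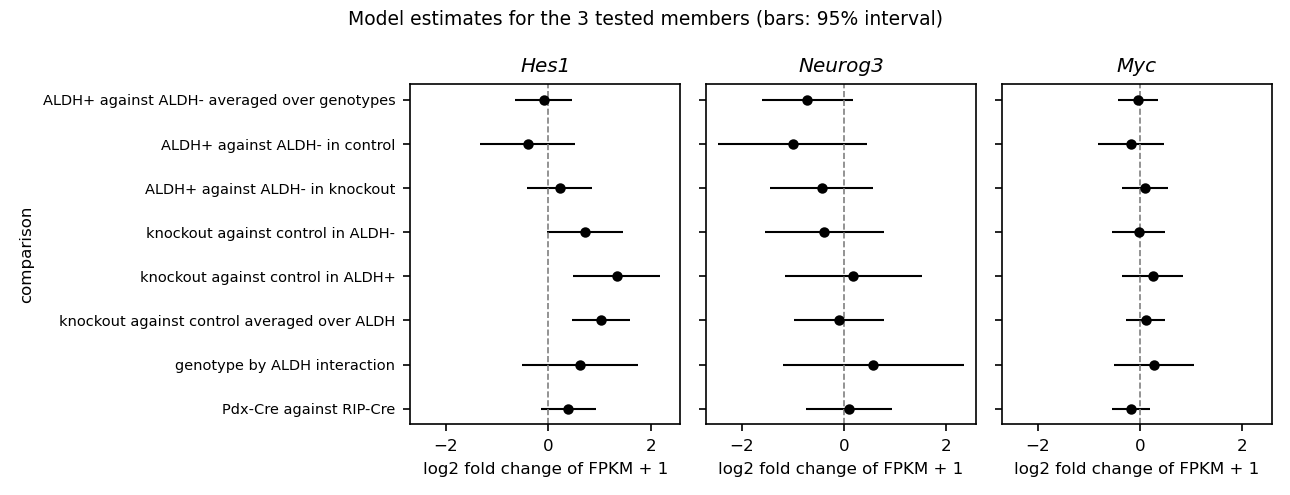
limma estimates (points) with 95% intervals (bars) of the log2 fold change of FPKM + 1 for *Hes1*, *Neurog3* and *Myc* in 8 comparisons. The *Hes1* intervals for knockout against control in ALDH+ cells (0.49 to 2.19) and averaged over ALDH (0.46 to 1.59) lie above 0, and every interval of *Neurog3* and *Myc* includes 0.

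Over the 15 libraries *Neurog3*, *Hes1* and *Myc* varied separately, with Pearson r of 0.20 for *Neurog3* and *Hes1*, -0.12 for *Neurog3* and *Myc* and 0.18 for *Hes1* and *Myc*. The tested genes closest to *Neurog3* were *Ythdf2* (r = 0.89), *Klf16* (0.86) and *Polr1d* (0.82). For *Hes1* they were *Esyt2* (0.86), *St8sia3* (0.79) and *Guca1a* (0.76), and for *Myc* they were *Oma1* (0.83), *Depdc7* (0.79) and *Atg4a* (0.79). These are descriptions over libraries that differ in genotype, sort, cre driver and depth, so group differences enter each r. The named genes had the highest r among 11253 tested genes, and high values arise in such a search over 15 libraries.

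Of 32 other Notch pathway genes, 18 were tested. The receptor *Notch1* (median 3.03 FPKM), the ligand *Jag2* (3.59) and the DNA-binding partner *Rbpj* (5.57) were present, while the Hes1 relatives *Hes5* and *Heyl* were listed at 0 in all 15 libraries. In ALDH+ against ALDH- cells averaged over genotypes 0 rose and 1 fell, against 2.23% and 3.74% of all genes. The gene that fell was *Psenen*, a subunit of the γ-secretase that cleaves Notch, at 85.4 to 173 FPKM in ALDH- and 53.6 to 112 in ALDH+ libraries (log2 fold change -0.60, limma adjusted p 0.018). The list's median log2 fold change was 0.08, against -0.02 over all tested genes. *Psenen* was higher in Pdx-Cre libraries (0.48, limma adjusted p 0.03), a call lost without any 1 of 8 libraries, and 0 of the 18 passed in any knockout comparison.

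Of 16 genes that act with or after *Neurog3* in endocrine differentiation, 12 were tested and 0 passed in either direction between ALDH populations. At an unadjusted limma p under 0.05, 5 of the 12 passed in the averaged comparison, against 20.8% of all tested genes. The study's own count-based test of wild-type ALDH+ against ALDH- cells listed *Rfx6*, *St18*, *Pax6* and *Myt1*, all among these genes, as higher. *Neurod1*, a direct target of Neurogenin3, was at a median of 108 FPKM and *Insm1* at 115, with averaged ALDH+ differences of 0.39 (limma adjusted p 0.083) and -0.27 (0.26). *Pax4*, a target active in endocrine progenitors, was listed at 0 in every library. The list's median was 0.33, against -0.02 over all genes, with 10 of 12 estimates above 0. Between cre drivers *Nkx6-1*, a β-cell factor, was lower in Pdx-Cre libraries (25.8 to 41.1 FPKM, against 57.2 to 97.1 in RIP-Cre libraries, log2 -1.02, limma adjusted p 9.9e-05).

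Among 16 early pancreatic and duct progenitor factors 10 were tested. *Glis3*, a regulator of *Neurog3* and of insulin transcription, rose in ALDH+ cells (19.2 to 28.9 FPKM in ALDH- and 31.1 to 38.5 in ALDH+ libraries, log2 0.51, limma adjusted p 0.02). The other 9 did not pass in that comparison. *Pdx1* (-0.98, limma adjusted p 0.0047) and *Tead1* (-0.59, limma adjusted p 0.0094) were lower in Pdx-Cre libraries. *Onecut1* was listed at 0 throughout, and *Ptf1a* was above 0 in 1 library.

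Of 21 further pluripotency factors 13 never reached 3 fragments, including *Sox2*, *Zfp42* and *Esrrb*, and 3 were tested. *Klf4* was at 0.341 to 4.00 FPKM in ALDH- and 2.13 to 7.61 in ALDH+ libraries (log2 0.92 ± 0.31, limma adjusted p 0.092), and *Sall4* was at 1.81 to 10.7 over all libraries (0.27 ± 0.30). *Klf4* is also expressed in adult epithelia. None of the 3 passed in any comparison.

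Of 14 partners and antagonists of Myc 13 were tested, and *Max*, its obligate partner, was at a median of 81.1 FPKM. *Mlxipl* (ChREBP), a glucose-responsive factor of the extended Myc network, rose in ALDH+ cells (1.37 ± 0.27, limma adjusted p 0.0091), as did *Mga* (0.52 ± 0.14, limma adjusted p 0.036). *Mlxipl* was lower in Pdx-Cre libraries (-1.32, limma adjusted p 0.0051). All 16 Myc target genes were tested, and 1, *Nme1*, fell in ALDH+ cells (-0.71 ± 0.16, limma adjusted p 0.019). Their median in that comparison was -0.14 against -0.02 over all genes, with 3 of 16 estimates above 0. Between cre drivers 3 of the 16, *Ldha*, *Odc1* and *Nme1*, were higher in Pdx-Cre libraries and 1, *Ccnd2*, was lower, where 5.68% and 4.05% of all genes passed. For *Ldha*, an enzyme kept low in mature β cells, the difference was 5.43 on the log2 scale (limma adjusted p 4.1e-07). The averaged ALDH calls depended on single libraries. Without control ALDH+ replicate 1 the number of genes called fell from 672 to 3, and *Psenen*, *Glis3*, *Mlxipl*, *Mga* and *Nme1* were no longer past the threshold, with directions kept. *Psenen* and *Nme1* were also lost without control ALDH+ replicate 2 or control ALDH- replicate 2, *Glis3* without control ALDH- replicate 2 or 3, and *Mga* without any 1 of 9 libraries.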

How the data were processed

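The authors sequenced poly-A RNA prepared with TruSeq and deposited 1 gene table per library with FPKM values and a confidence interval for each, in the layout of Cufflinks. Per the submitters' processing notes, bcl2fastq 1.8.4, TopHat2 2.0.4 and the mm9 build were used. The quantifier's version and the annotation are not given in the sources used here, and coordinates are as deposited. Counts were not used here, so limma replaced the study's count-based test.

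Of 23699 lines per table, 712 lines of 248 repeated symbols and 63 lines without a valid estimate in all libraries were left out (*Ins1* and *Ins2* among them). Fragments behind a value were taken from the interval as 2 Poisson standard errors, and of values below 500 fragments, 67.0% were whole numbers to within 0.02. Library scaling used trimmed means of M-values without weights (30% of M and 5% of A values trimmed, factors 0.917 to 1.05). The model, made in R 4.3.3 using limma 3.58.1 and a variance trend, took log2 of FPKM plus a pseudocount of 1 and held the 4 groups and the cre driver. Fold changes are on this log2(FPKM + 1) scale, which understates changes of low genes. A gene was tested at a mean rescaled FPKM of at least 1. Tests were two-sided, with Benjamini-Hochberg adjustment over all genes tested and a threshold of 0.05. The model and the exact permutation test were tested on simulated data. The labels do not say that libraries of a group came from separate animals, so p-values measure the spread between libraries, which may be technical.

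The members and all lists were chosen with earlier results of these data known. The text names the 8 members, the 3 tested genes that correlate best with each tested member, the list genes past the threshold (else the 2 with the smallest p between ALDH populations; 1 gene is not reported here), and *Aldh1a3* and the FoxO genes as checks. Levels of *Notch1*, *Jag2*, *Rbpj*, *Hes5*, *Heyl*, *Neurod1*, *Insm1*, *Pax4*, *Max*, *Onecut1*, *Ptf1a*, *Sox2*, *Zfp42* and *Esrrb* were added after values were seen. *Rfx6*, *St18*, *Pax6* and *Myt1* are named because the study's own test called them. Alternatives were a pseudocount of 0.1, no filter, no rescaling, no cre driver in the model, RIP-Cre libraries alone, a replicate block, 10 fragments for detection, and each library left out. The exact tests within each cre driver were chosen after the data had been seen.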

Additional observations from a re-analysis of the deposited data

Results flagged for a closer look

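In 6 cases 1 library was the only one above 0 in a group of 5, which meets Dixon's criterion for a value that stands apart. With 4 libraries at exactly 0 any value above 0 meets it, so the usual chance rate of about 1 in 20 groups does not apply. They were *Sox9* in knockout ALDH- replicate 3 (0.0244 FPKM) and in knockout ALDH+ replicate 2 (0.0451), *Pou5f1* in knockout ALDH- replicate 1 (0.0589) and in knockout ALDH+ replicate 3 (0.0700), *Mycl1* in knockout ALDH- replicate 3 (0.0293) and *Mycn* in knockout ALDH+ replicate 5 (0.317). Only the *Mycn* value rests on more than 2 fragments, namely 8.

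With no filter on low values, the ALDH difference of *Pou5f1* itself differed between genotypes, with an interaction of -0.58 on the log2 scale (limma adjusted p 0.046), from 2 control ALDH+ libraries whose deposited intervals reach 0.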

How the results depend on the processing

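Of 162 values of *Hes1*, *Neurog3* and *Myc* under settings other than leaving out a library, 156 kept their direction and 0 passed the threshold, with a smallest adjusted p of 0.24. None of the 6 that reversed was past the threshold. With the RIP-Cre libraries alone they were *Hes1* for ALDH averaged (0.040), *Neurog3* for knockout in ALDH- cells (0.33) and averaged (0.40) and *Myc* for knockout averaged (-0.035). With a pseudocount of 0.1 they were *Neurog3* for knockout in ALDH+ cells (-0.24) and for the cre driver (-0.51). The cause was not tested. The count of members called was 0 in every setting except no filter, where it was 1 (*Pou5f1*) for ALDH averaged (adjusted p 0.0102), ALDH in control (0.0061), knockout in ALDH+ cells (0.0043), knockout averaged (0.0361) and the interaction (0.0460). At 10 fragments 5 rather than 6 members were detected.

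When each library was left out in turn, 18 of 360 values reversed and 0 passed the threshold. The ranges were -0.11 to 0.049 for *Myc* and -0.21 to 0.037 for *Hes1* in the averaged ALDH comparison, -0.33 to 7.4e-05 for *Myc* in controls and -0.036 to 0.17 in knockouts. For knockout against control they were -0.86 to 0.48 (*Neurog3*) and -0.17 to 0.15 (*Myc*) in ALDH- cells, -0.12 to 0.36 (*Neurog3*) in ALDH+ cells and -0.35 to 0.31 (*Neurog3*) averaged. For *Neurog3* the interaction ran from -0.34 to 1.03 and the cre driver from -0.37 to 0.29. The knockout estimate of *Hes1* ran from 0.90 to 1.17, with its smallest adjusted p, 0.066, without knockout ALDH+ replicate 4. *Neurog3* for ALDH in controls ran from -1.46 to -0.09, the last without control ALDH- replicate 3.

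Libraries with the same replicate number in a genotype did not deviate together (correlations -0.04 to 0.07). The deviations were taken after removal of group means and the cre driver, in groups of 2 to 5 libraries. This check therefore cannot exclude that the numbers pair the samples. With the replicate block *Hes1* for knockout averaged was 1.03 (adjusted p 0.29), and within the cre driver 1.03 (0.31), with 0 members called. Over all genes the ALDH averaged calls were 672 as reported and 721 with the block, 183 with no cre driver and 43 in RIP-Cre libraries, and the averaged knockout calls were 13, against 40 with no filter, 6 with no cre driver and 7 in RIP-Cre libraries. The calls for ALDH in controls were 137, against 0 with no cre driver and 9 in RIP-Cre libraries, and in knockouts 2, against 4 with the block. For knockout in ALDH+ cells they were 0, against 33 with no filter and 4 in RIP-Cre libraries, and for the interaction 0, against 16 and 3. Of the 5 list genes called between ALDH populations, *Mlxipl* was past the threshold in 20 of 22 alternatives, *Glis3* in 18, *Psenen* and *Nme1* in 17 and *Mga* in 11.

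A value of 0 allows up to 3 fragments, and *Nanog*, *Mycl1*, *Sox9* and *Pou5f1* were at or near that limit in nearly every library.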
